A study of Mus musculus with 12 samples.

Results

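These results concern 2599 genomic regions that were in the binding site lists of NeuroD2, of a MyoD-NeuroD2 chimera and of both mutants of that chimera, and not in the list of MyoD. The regions were chosen by pooling the intervals of 5 deposited lists, merging those that overlapped by at least 1 base, and keeping merged regions with intervals of all lists but MyoD's. They made up 4.32% of 60136 merged regions and are called 4-list regions here. Membership rests on the lists themselves, so presence and rank in the lists are given as descriptions, with no test.

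Binding was mapped by ChIP-seq, the sequencing of DNA precipitated with an antibody to the bound protein. P19 cells, which come from a mouse embryonal carcinoma and can be turned into several cell types, gave 12 libraries in 6 groups of 2. The cells were transduced with MyoD, with NeuroD2, with the MD(ND2bHLH) chimera, with its MD(ND2bHLH)WC mutant or its MD(ND2bHLH)WCS mutant, or with nothing. In the chimera the basic helix-loop-helix (bHLH) domain of MyoD is exchanged for that of NeuroD2. The labels do not say what the letters WC and WCS stand for, and the mutants are called WC and WCS here. Per the labels, infection took place with polybrene at 8 µg/ml, and after 48 h every group was moved to a medium for neurons. MyoD antibodies 6196 and 6975 served MyoD, the chimera, WC and WCS, whereas NeuroD2 antibodies 1165 and 1240 served NeuroD2. The 2 libraries of a group differ in antibody and share 1 list, so the spread between replicates is unknown. In any comparison of NeuroD2 with the other proteins, antibody and protein cannot be told apart. No list of the untransduced cells was used here.

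bHLH transcription factors bind DNA as dimers, usually with an E protein as the partner, at a short motif called the E-box. MyoD drives skeletal muscle differentiation and NeuroD2 drives neuronal differentiation, and the bases at the centre and flanks of the E-box that each prefers differ. The basic region of the bHLH domain contacts the E-box and the helix-loop-helix region forms the dimer, while other parts of MyoD contact cofactors. The 4-list regions are places where proteins with the bHLH domain of NeuroD2 were all listed and the protein with the bHLH domain of MyoD was not. The E-boxes themselves and the genes nearby were not analysed here.

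Each interval carries a value given by the authors. Its unit is not named in the sources used here, so it served only to rank intervals within a list, as a percentile from 0 for the lowest to 100 for the highest. MyoD's list held 24935 intervals and NeuroD2's 31458. There were 14375 in the chimera list, 27045 in the WC list and 22462 in the WCS list. Because the lists differ in length, percentiles are compared mainly between classes of regions within a list, and a gap between lists is not a change in binding. Where percentiles of a region are set side by side across lists, some counts over regions are given with lists of equal length too. The others hold for the lists as deposited, where list length is not accounted for. Read depth is unknown. A region missing from a list may lie under that list's limit of about 5 on the authors' scale, which was 5.002 at the lowest for MyoD and 5.035 for the chimera. The MyoD and chimera lists held 0 intervals on chromosome X, so 0 of the 4-list regions lie there, whereas NeuroD2 had 570 intervals on X. The shortest chimera interval was 200 bases, against 53 for NeuroD2 and 54 for each mutant. This difference between the lists goes with the proteins and cannot be told apart from them.

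The 4-list regions made up 18.2% of the regions that hold a chimera interval, 11.7% of those with WCS, 9.71% of those with WC and 8.38% of those with NeuroD2. The same 2599 regions are counted each time, so the order of these shares only mirrors the lengths of the lists. With only the 50% of each list of highest value the rule gave 1306 regions, and 928 of the 2599 were found again. Nearly all 4-list regions were simple in form: 2488 of 2599, or 95.7%, had exactly 1 interval of each list, and 2582 had at least 1 base covered by all 4 lists. In 17 regions the intervals only formed a chain, with no base in common. Median region width was 566 bases (quartiles 468 and 700.5), and a median of 329 bases was covered by all 4 lists, a median of 60.4% of the width.

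Interval centres lay close together, most closely for the mutants. Over the 2488 regions with 1 interval of each list, the centres of WC and WCS lay a median of 20 bases apart, and 86.5% lay within 50 bases. NeuroD2 centres lay a median of 31.5 bases from those of WC and 30.5 from those of WCS. The chimera stood further off, at a median of 35 bases from NeuroD2 and 40.5 from each mutant. Its centre was over 100 bases from that of NeuroD2 in 16.6% of the regions, against 5.31% for WC and 5.06% for WCS. Interval widths in these regions were alike, with a median of 424 bases in NeuroD2, 425 in the chimera, 441 in WC and 407 in WCS. In the whole lists the medians were 341, 431, 349 and 329 bases. Intervals of NeuroD2, WC and WCS were thus wider in the 4-list regions than in their lists at large, and those of the chimera were not.

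Rank within the lists split in the same way. The authors' value in the NeuroD2 list ran from 5.026 to infinite, with a median of 22.5 against 10.5 for the whole list. WC values ran from 5.038 to 283.4, with a median of 27.2 against 10.5. WCS values ran from 5.025 to infinite, with a median of 21.0 against 10.0 for the whole list. The chimera values ran from 5.035 to 118.9, with a median of 9.12 against 9.49. So these regions were among the strong sites of NeuroD2 and both mutants, and ordinary sites of the chimera.

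As percentiles, the medians were 77.9 in the NeuroD2 list, 82.6 in WC, 78.3 in WCS and 47.8 in the chimera. The top 25% of the NeuroD2 list, at percentile 75 or above, held 1426 of the 4-list regions, or 54.9%, beside 25.1% of all regions with a NeuroD2 interval. In the WC list it was 1625 regions or 62.5%, also beside 25.1%, and in the WCS list 1434 or 55.2%, beside 25.1%. In the chimera list 501 regions or 19.3% were in the top 25%, beside 25.1% of all chimera regions. The lowest 25% of the chimera list held 674, or 25.9%, beside 24.6%, so the share there was near the background. Only 3.69% of the 4-list regions were in the lowest 25% of WC, beside 24.6%, 6.66% in that of NeuroD2, beside 24.7%, and 5.96% in that of WCS, beside 24.2%. With all lists shortened by value to 14375 intervals, the median percentiles were 70.8 for NeuroD2, 77.3 for WC, 78.2 for WCS and 53.6 for the chimera. The chimera median was also the lowest at equal length, but the gap to NeuroD2 was smaller. The share in the top 25% was then 44.8% for NeuroD2, 54.5% for WC and 24.7% for the chimera, so that the chimera share came to the 25.1% of all its regions.

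**Figure D1:**
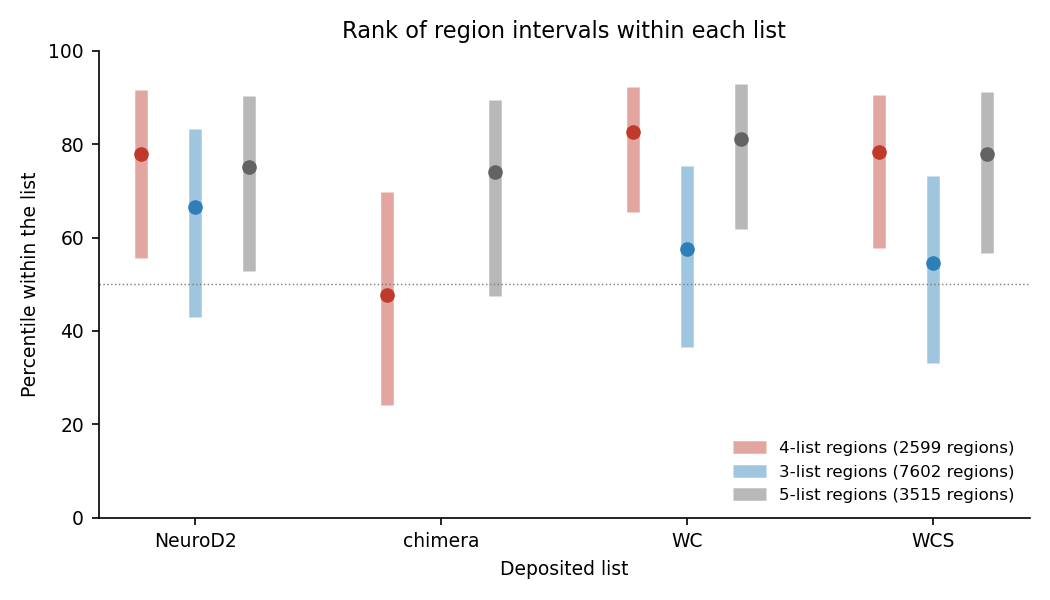
Percentile of region intervals within each deposited list (vertical axis, 0 lowest to 100 highest) for 4-list regions (red), 3-list regions of NeuroD2, WC and WCS alone (blue) and 5-list regions (grey). Points are medians and bars run from the first to the third quartile over regions, and the dotted line marks 50. The red point lies at 47.8 in the chimera list and between 77.9 and 82.6 in the others, and 3-list regions have no chimera interval.

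Of the classes that differ from the 4-list regions by 1 list, the 2 largest were compared with them. Ranks in the 379 regions of the chimera, WC and WCS alone, which lack NeuroD2 as well as MyoD, are not given here. The 7602 regions of NeuroD2, WC and WCS alone, called 3-list regions, lack the chimera as well as MyoD. Their median percentile was 66.4 in the NeuroD2 list, 57.5 in WC and 54.6 in WCS, so 4-list regions had the higher median in each of these lists. The 3515 regions of all lists, called 5-list regions, add MyoD. Their medians were 75.04 in NeuroD2, 81.1 in WC and 77.9 in WCS, close to those of the 4-list regions. In the chimera list the 5-list regions stood at 74.1, against 47.8 for the 4-list regions, and 48.5% of them were in its top 25%. Regions of MyoD and the chimera alone, 2643 in number, had a chimera median of 42.8, and the 1972 regions of the chimera alone had 29.2. These gaps were not tested, since the lists that define the classes are those that give the ranks.

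Region by region, the chimera was the list in which a 4-list region ranked lowest in 1776 cases, or 68.3%. NeuroD2 was lowest in 406 regions, WCS in 291 and WC in 126. The chimera percentile was below that of both mutants in 1985 regions, or 76.4%, and above both in 287, or 11.0%. With lists of equal length these shares were closer: the chimera was lowest in 1272 of 2267 regions, or 56.1%, and NeuroD2 in 571, or 25.2%. The chimera was then below both mutants in 67.5% and above both in 15.6%. In 201 regions of the lists as deposited NeuroD2, WC and WCS were all in their top 25% while the chimera was in its lowest 25%. The converse, with the chimera in its top 25% and the other 3 in their lowest 25%, was met in 0 regions. At equal length these counts were 91 and 3. In the lists as deposited, NeuroD2, WC and WCS were all in their top 25% in 1051 regions, of which the 201 are a part. The lowest 25% of the chimera list held 25.9% of all 4-list regions, and that of WC only 3.69%. The 2 counts thus have unlike bases, and their contrast says little about how the lists relate. All 4 lists were in their top 25% in 291 regions and in their lowest 25% in 7. At equal length these were 265 and 3 regions. The highest and lowest percentile of a region differed by a median of 42.4 points (quartiles 25.9 and 61.1).

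NeuroD2, WC and WCS ordered the 4-list regions much alike, and the order in the chimera list was more weakly related to theirs. Spearman's rho over the 2599 regions was 0.782 for WC and WCS, 0.661 for NeuroD2 and WCS, and 0.657 for NeuroD2 and WC. For the chimera it was 0.351 with WC, 0.271 with WCS and 0.186 with NeuroD2. These are descriptions over regions that share their libraries, mappability and width, and the width of a region itself correlated with its percentile, at rho 0.240 for the chimera and between 0.331 and 0.351 for the others. The order of the 6 pairs was the same over the 5-list regions, where rho was 0.793 for WC and WCS and 0.286 for NeuroD2 and the chimera. There the chimera had 0.512 with WC and 0.386 with WCS, higher than over the 4-list regions.

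**Figure D2:**
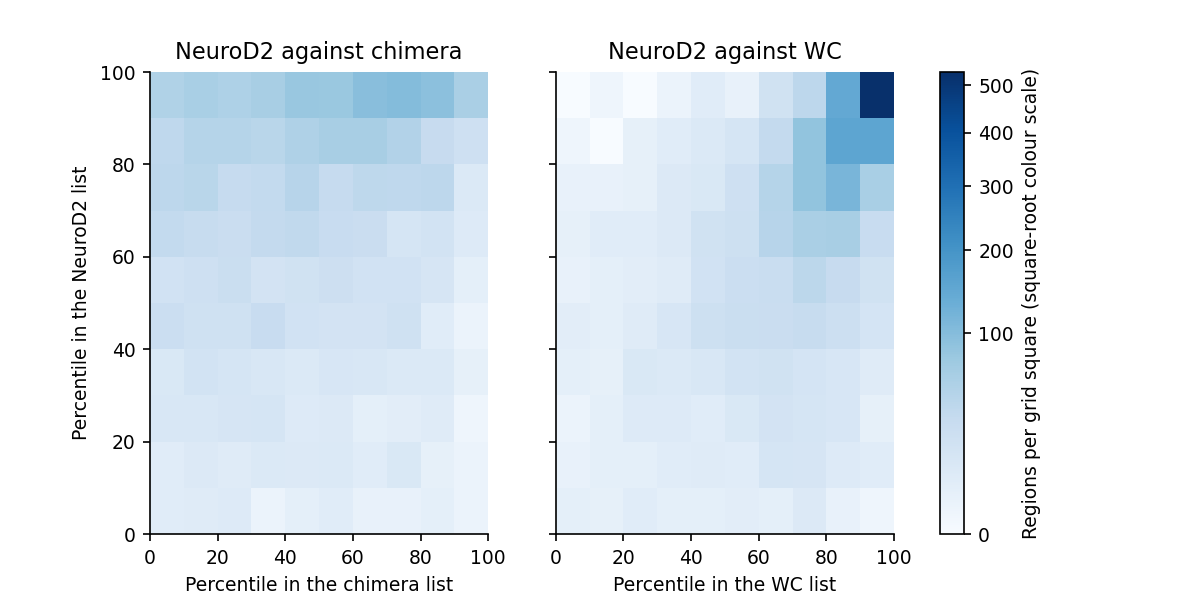
Number of 4-list regions in each square of 10 by 10 percentile points, for NeuroD2 (vertical axis) against the chimera (left) and WC (right), with colour on a square-root scale. At or above percentile 90 in both lists lie 527 regions for NeuroD2 and WC and 61 for NeuroD2 and the chimera. In the chimera panel regions spread along the whole axis. The counts have unlike bases, since 62.5% of 4-list regions stood at percentile 75 or above in WC and 19.3% in the chimera. Their contrast thus says little about how the lists relate, and counts at equal list length are not given.

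The strongest chimera sites among them were also strong in the other lists. Where the chimera percentile was below 25 (674 regions) the median percentile was 73.0 in NeuroD2, 74.6 in WC and 72.4 in WCS. Where it was 75 or more (501 regions) the medians were 85.5, 91.9 and 88.4. Median width was 510.5 bases in the former and 638 in the latter. By these medians, even the regions of lowest chimera rank stood above the 3-list regions in the lists of NeuroD2, WC and WCS.

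The 10 regions named first were chosen for having the highest rank in their lowest list, and they show what a 4-list region of uniform strength looks like. The first was chr11:118833885-118835599 (mm9), 1715 bases wide, with values of 228.4 in the NeuroD2 list, 105.7 in the chimera, 283.4 in WC and 265.9 in WCS. It lay above percentile 99 in every one of these lists, and the nearest MyoD interval was 21223 bases away, with a value of 6.30. The second, chr10:83849791-83850634, had values of 168.5, 75.96, 207.6 and 235.7 in the same order. Its lowest percentile, in the chimera list, was 98.4, and a MyoD interval lay 1910 bases off. The third, chr4:20387265-20387982, had 197.5, 62.7, 204.1 and 222.4, and lay 88879 bases from MyoD. The fourth, chr9:96951349-96952151, had 124.8, 60.7, 160.6 and 174.6.

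The fifth, chr17:29816899-29817745, had an infinite value in the NeuroD2 and WCS lists, 249.6 in WC and 47.7 in the chimera. It was the one 4-list region with an infinite value in either list, and a weak MyoD interval, with a value of 5.30, lay only 289 bases away. The remaining regions were chr3:97117297-97117934, chr4:135468507-135469130, chr11:103960723-103961386, chr2:26962096-26963016 and chr11:113445126-113445965. Of these the region on chromosome 4 had its lowest rank in the NeuroD2 list, at percentile 95.4 and a value of 63.2, beside 68.0 in the chimera. The region on chromosome 3 was also lowest in NeuroD2, at 95.6, and the other 8 named regions were lowest in the chimera. The region on chromosome 2 lay 648 bases from a MyoD interval with a value of 43.8, so a strong MyoD site stood beside it.

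**Figure D3:**
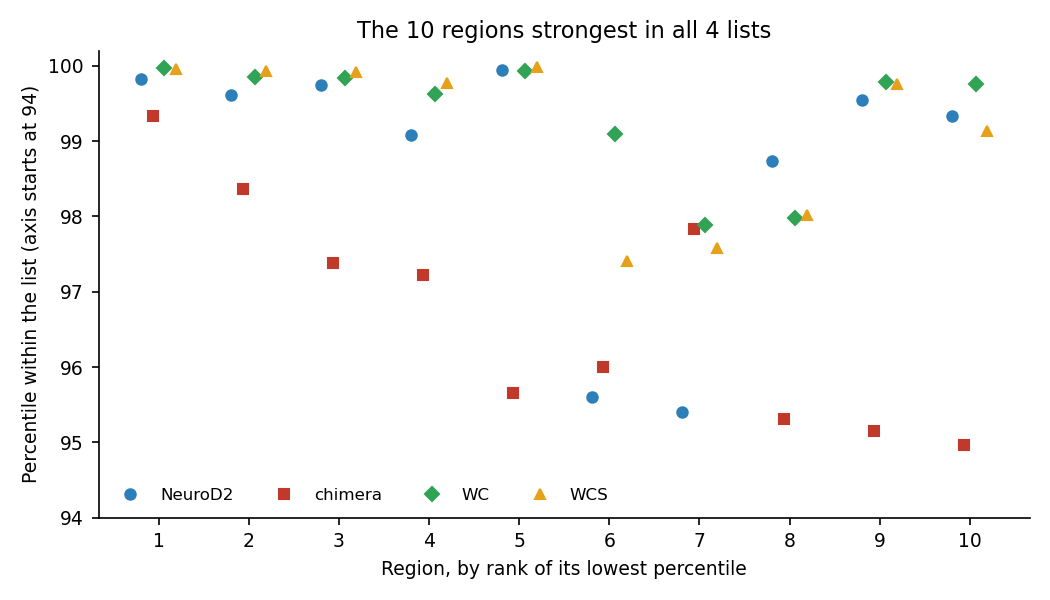
Percentile within each list (vertical axis, which starts at 94) of the 10 regions whose lowest percentile is highest, ordered by that percentile (horizontal axis). Red squares, the chimera, are the lowest mark in 8 of the 10 regions, between 94.97 and 99.3.

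Other regions leaned to 1 list. The leading lean to NeuroD2 was chr10:87783747-87784161, at percentile 78.3 in NeuroD2 and 11.9 in the chimera, 11.3 in WC and 0.844 in WCS. The leading lean to the chimera was chr8:94590379-94591067, at 88.1 in the chimera, 4.54 in NeuroD2, 52.2 in WC and 0.844 in WCS, with values of 27.7, 5.23, 11.1 and 5.03. For WC it was chr15:86315068-86315581, at 87.0 against 10.8 in NeuroD2, 17.9 in the chimera and 2.13 in WCS. A MyoD interval with a value of 57.5 lay 7720 bases from it. For WCS it was chr1:162072159-162072564, at 64.2 against 2.71 in NeuroD2, 7.87 in the chimera and 5.10 in WC. In each of these regions at least 1 value lay near the floor of its list. Over all 4-list regions the lowest of the 4 values was under 6 in 533, or 20.5%. The chimera's own value was under 6 in 385, or 14.8%. In the whole chimera list a value of 5.913 stood at percentile 13.1 and 6.145 at 15.2, so 14.8% was near that list's own share. Corresponding counts were 97 (3.73%) for NeuroD2, 75 (2.89%) for WCS and 45 (1.73%) for WC. In these whole lists, values of 5.885, 5.864 and 5.906 stood at percentiles 14.1, 14.2 and 12.5. No share under 6 was counted for other classes.

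Presence of the chimera at regions of NeuroD2, WC and WCS went with presence of MyoD. Among the 14861 regions with these 3 lists, 41.1% had a chimera interval. On the autosomes the share was 25.9% without MyoD (2599 of 10016; exact Clopper-Pearson 95% interval 25.1 to 26.8%) and 75.4% with MyoD (3515 of 4660; 74.2 to 76.7%). These intervals cover counting error only, and regions of 1 list are not replicates. With lists of equal length the shares were 40.1% and 88.1%, in the same order.

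The gap was there at every strength. Regions were put in 5 equal bins by their mean percentile in NeuroD2, WC and WCS. Without MyoD the chimera share rose from 10.5% in the lowest bin through 16.4%, 22.3% and 32.5% to 56.8% in the highest, where 920 of 1619 regions had it. With MyoD it rose from 54.9% through 62.7%, 71.8% and 81.6% to 91.6%. The highest bin without MyoD thus came to about the level of the lowest bin with it (54.4 to 59.3% against 51.2 to 58.6%). MyoD and the chimera share the lack of chromosome X and the lack of short intervals. They also share the antibodies named at the outset, as do WC and WCS, and the part of antibody was not tested. Any batch that joined MyoD and the chimera is confounded with the proteins, and these cannot be told apart.

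**Figure D4:**
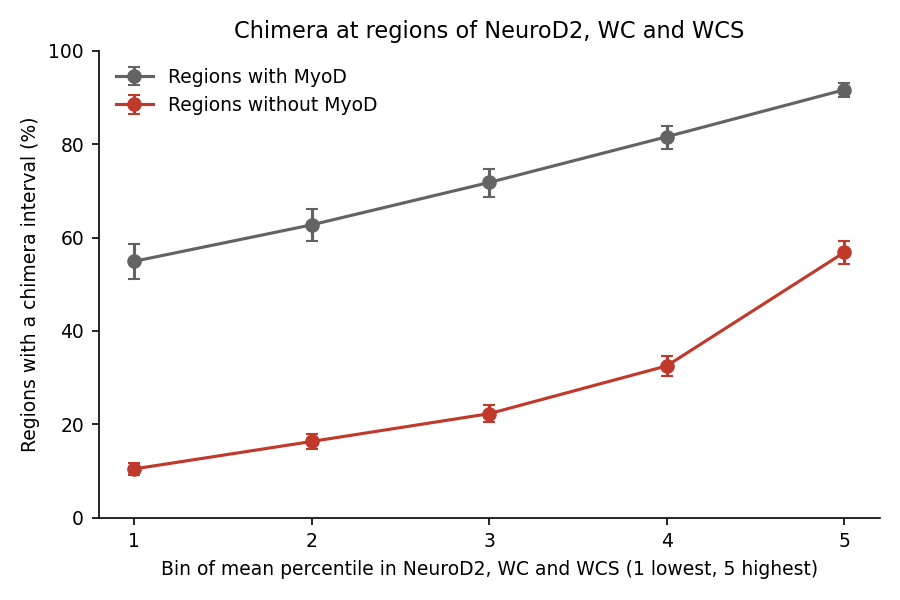
Share of autosomal regions of NeuroD2, WC and WCS that also hold a chimera interval (vertical axis), by bin of mean percentile in those 3 lists (horizontal axis), with exact 95% intervals for counting error. Red is without MyoD, where holding the chimera makes a 4-list region, and rises from 10.5 to 56.8%, below grey, with MyoD, in every bin.

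Presence of the mutants at regions of NeuroD2 and the chimera was nearly the same with and without MyoD. Of 3097 regions with NeuroD2 and the chimera and without MyoD, both mutants held 2599, or 83.9% (82.6 to 85.2%). With MyoD it was 3515 of 4186, or 84.0% (82.8 to 85.1%). These shares were not split by strength, and the 2 sets differ in chimera rank. With both mutants present, the median chimera percentile was 47.8 without MyoD and 74.1 with it. WC alone of the mutants held 7.36% without MyoD and 7.33% with it, WCS alone 2.26% and 2.68%, and neither 6.46% and 6.02%. Regions that failed to enter the 4-list class because a mutant was missing were weak: the 200 with neither mutant had a median NeuroD2 percentile of 27.7 and a chimera percentile of 30.8, against 77.9 and 47.8 in the 4-list regions. The 228 regions with WC and no WCS had 40.6 and 34.9. WCS without WC, 70 regions, gave 41.7 and 28.2.

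Fewer of the 4-list regions lay far from a MyoD interval than of the other classes without MyoD that were measured. The median gap to the nearest MyoD interval was 15055 bases (quartiles 4508.5 and 41129), against 22447 for all autosomal regions without MyoD. The gap was over 10 kb for 1551 of 2599 regions, or 59.7%, beside 68.6% of all autosomal regions without MyoD. It was 67.9% for 3-list regions, 64.6% for regions of the chimera alone and 72.0% for regions of WC and WCS alone. At the other end, 143 regions or 5.50% had a MyoD interval within 500 bases, beside 3.29% of all such regions, 3.05% of 3-list regions and 5.32% of regions of the chimera alone. The wider 4-list regions, with a median of 566 bases against 434 for 3-list regions, reach slightly nearer to any neighbour, and the part of width in this was not tested. Nor was the difference itself tested, since neighbouring regions are not independent.

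**Figure D5:**
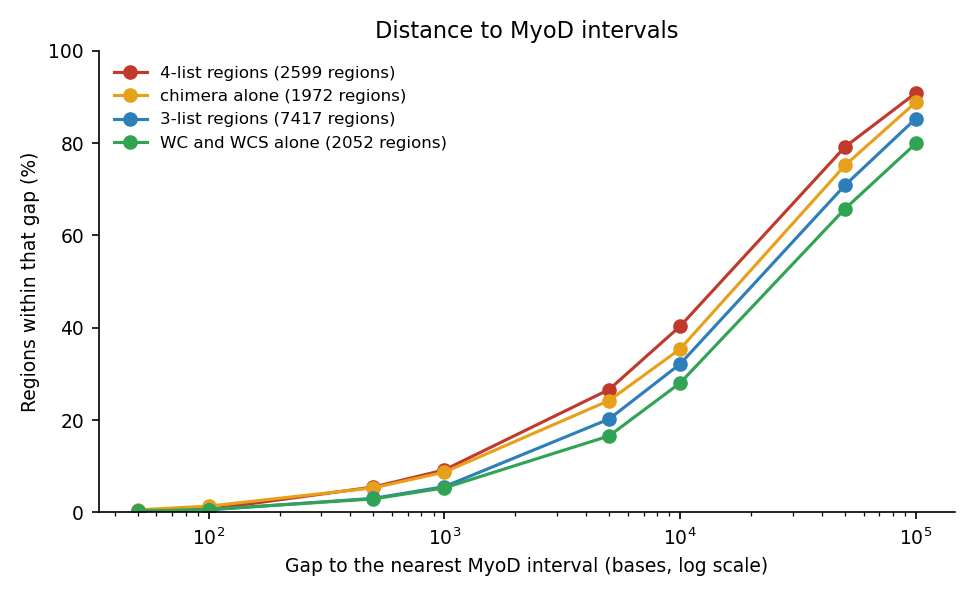
Cumulative share of autosomal regions (vertical axis) with a MyoD interval within a given gap (horizontal axis, bases, log scale), for 4-list regions and 3 other classes without MyoD. Within 10000 bases the 4-list curve reaches 40.3%, against 35.4% for the chimera alone, 32.1% for 3-list regions and 28.0% for WC and WCS alone.

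Regions near MyoD had somewhat lower median ranks in NeuroD2 and WC, with little difference in the chimera and WCS. The 143 regions within 500 bases of a MyoD interval had median percentiles of 72.6 in NeuroD2, 48.6 in the chimera, 78.2 in WC and 77.5 in WCS. The 905 regions between 500 bases and 10 kb away had 77.1, 49.6, 81.5 and 78.1 in the same order. The 1551 regions over 10 kb away had 79.2, 46.6, 83.5 and 78.4. These differences were not tested. The MyoD intervals beside the near regions were of middling rank, with a median percentile of 45.1 and a median value of 9.72.

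Few regions lay within a few bases of the limit that sets MyoD overlap. Other limits of the rule moved more: 2216 of the 2599 regions, or 85.3%, were found again when intervals were joined by centres at most 100 bases apart, and 20.5% had a value under 6 in at least 1 list, as given above. The lower limit of the MyoD list moved the count too. With the top 50% of the other 4 lists there were 1306 regions with MyoD's top 50% and 929 with MyoD whole. Of the 4-list regions, 4, or 0.154%, had a MyoD interval within 50 bases, beside 0.243% of all autosomal regions without MyoD. Of 3515 5-list regions, 4 shared 50 bases or fewer with MyoD, against a median of 406. The nearest inside the rule were chr2:152562528-152562945, 29 bases from a MyoD interval of value 11.0, chr12:110088176-110088904, 34 bases from one of 5.09, and chr5:111967152-111968226, 36 bases from one of 7.22. Their values in NeuroD2 were 25.1, 10.8 and 115.5, and in the chimera 7.62, 9.75 and 7.83. Just outside it were chr1:90565236-90566002, chr9:114435854-114436647 and chr14:65884860-65885748, which shared 28, 42 and 46 bases with MyoD intervals of 6.28, 17.9 and 5.48. Their NeuroD2 values were 8.26, 12.6 and 15.96, and their chimera values 12.4, 10.8 and 8.30.

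The 4-list regions were spread over all 19 autosomes. Chromosome 11 had the most, 238 or 9.16%, and they were 5.37% of its merged regions, the highest share of any autosome. Chromosome 14 had the lowest share, 3.50% with 73 regions, beside 4.38% over all autosomes. Chromosomes 8 and 9 stood at 5.18% and 5.14%, and chromosome 10 at 3.67%. The median gap from a 4-list region to the next was 118155 bases, and 326, or 12.5%, had another within 10 kb. These gaps were not measured for other classes, so they do not show whether 4-list regions are crowded or spread out. The 4-list regions fell into 2140 windows of 100 kb, of which 1788 held a single one and 72 held 3 or more.

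The leading window, from 14900001 on chromosome 5, held 8 of these regions, and with both windows that follow it the number was 16. Assigned by their centres, its intervals numbered 67 for NeuroD2, 63 for WC, 60 for WCS, 10 for the chimera and 5 for MyoD, so most NeuroD2 sites there were not chimera sites. The widest 4-list region, chr5:15183566-15187739, lay in the same stretch, with 4174 bases and values of 67.6 in NeuroD2, 9.24 in the chimera, 115.9 in WC and 103.5 in WCS. Whether reads map uniquely there was not tested. The next widest were chr1:85076729-85079849, with 3121 bases, and chr6:23110399-23113140, with 2742 bases and no base in all 4 lists. The second window, from 82700001 on chromosome 15, was of another kind, with 7 regions among 16 NeuroD2, 10 chimera, 13 WC, 13 WCS and 3 MyoD intervals. Among the windows with 5 regions, the first, from 51800001 on chromosome 3, had 8 NeuroD2, 6 chimera, 7 WC, 6 WCS and 2 MyoD intervals.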

How the data were processed

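The authors deposited 5 lists of intervals. Each covers both libraries of a transduced group, per the labels. The build is mm9, and BWA 0.7.5 and CASAVA 1.8.2 are named, per the submitters' processing notes. Peak caller, background, filters and pooling: not given in the sources used here. The authors' deposited value of an interval was treated as a score of unnamed unit and used only for ranks within a list. Read depth is unknown.

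Intervals were merged at an overlap of 1 base. A region's value in a list is the highest of its intervals, and a percentile is the mid-rank within the list. Gaps to MyoD count the bases between. Regions named are the 10 with the highest lowest percentile, 3 that lean most to each list (the first is printed), the 3 widest, 3 on either side of the MyoD limit and the 3 leading windows, tied windows in chromosome order. Regions on chromosome 18 were counted and not named. Members and choices were made with earlier results of these data known. With 1 list a group, no test between groups was possible. Coordinates are 1-based in mm9. No sequence or gene was placed, since the reference tables used belong to another build. The merging was tested on simulated data. The alternatives changed the overlap rule, the list lengths and the filters. Calculations used scipy 1.17.1, pandas 2.3.3 and numpy 2.4.6 under Python 3.11.15, with matplotlib 3.10.9 for plots.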

Additional observations from a re-analysis of the deposited data

How the results depend on the processing

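Motif alternatives were not run, since no mm9 genome was used. No paired analysis was possible because each group has a single list. All 10 alternatives on regions were run, and the chimera list had the lowest median percentile in each. The highest was WC, except with lists of equal length, where it was WCS. The shares with the chimera, with both mutants, in the top 25% of a list and of lowest rank, the 3-list share over 10 kb and the count of named regions found again were chosen as results after seeing the data. Values that left their 95% counting interval, and counts that moved by over 1.5 times, follow. The cause was not tested unless the setting itself removes intervals.

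With the top 50% of each list there were 1306 regions and with the MyoD list whole 929. Of the 2599 regions, 928 were found again in each of these, 1797 with lists of equal length and 2216 by centres. In the order NeuroD2, chimera, WC, WCS, median values were 37.3, 15.6, 43.6 and 34.4 with the top 50%, 37.2, 14.9, 44.5 and 34.4 with MyoD whole, and 33.4, 10.04, 35.2 and 28.9 at equal length. Median percentiles moved to 43.9 for the chimera with MyoD whole, and at equal length to 70.8 for NeuroD2, 53.6 for the chimera and 77.3 for WC. The share in the top 25% of NeuroD2 was 52.8% with the top 50%, 52.7% with MyoD whole and 44.8% at equal length. For the chimera it was 15.3% with MyoD whole and 24.7% at equal length, and for WC 54.5% at equal length. The chimera ranked lowest in 65.2% with the top 50% and 56.1% at equal length. It was below both mutants in 78.9% with MyoD whole and 67.5% at equal length, and above both in 8.07% and 15.6%.

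The rank correlation between lists fell in every changed case. With the top 50% it was 0.137 for NeuroD2 and the chimera, 0.622 for NeuroD2 and WC, 0.628 for NeuroD2 and WCS, 0.223 for the chimera and WCS and 0.746 for WC and WCS. With MyoD whole these were 0.127, 0.611, 0.620, 0.2003 and 0.732, and 0.287 for the chimera and WC. At equal length NeuroD2 had 0.602 with WC and 0.580 with WCS, and the mutants 0.7602.

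The share over 10 kb from MyoD was 57.1% with centres within 100 bases, 63.7% with intervals within 500 bases joined, 74.96% with the top 50%, 71.9% at equal length and 63.2% without dense windows. For 3-list regions it was 63.9%, 70.7%, 79.9%, 78.96% and 70.3%, higher than for 4-list regions in each. The chimera share without MyoD was 23.7% by centres, 24.3% with the top 50%, 20.3% with MyoD whole and 40.1% at equal length. With MyoD it was 68.6%, 66.9% and 88.1% by centres, with MyoD whole and at equal length. The share with both mutants was 82.5%, 86.95% and 86.7% without MyoD (centres, top 50%, MyoD whole), and 85.4% and 86.4% with MyoD (MyoD whole, equal length).

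Of 190 chromosome shares, 9 moved. With the top 50% they were 3.91% on chromosome 7, 4.75% on 12, 5.59% on 15, 2.45% on 16 and 2.99% on 18. With MyoD whole they were 3.23% on 3, 4.84% on 12, and 2.26% on each of 16 and 19. Of the 10 named strongest regions, 8 still overlapped a 4-list region by centres or with intervals within 500 bases joined, 7 without dense windows, and all 10 under the other 7 alternatives.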

Other observations

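The regions absent from exactly 1 list were unevenly shared out. MyoD was the absent list in 2599 regions (4.32% of all merged regions), the chimera in 1145 (1.90%) and NeuroD2 in 507 (0.843%). WCS was absent in 307 (0.511%) and WC in 112 (0.186%). These counts depend on the lengths of the lists, which ran from 14375 intervals for the chimera to 31458 for NeuroD2. The part of list length was not tested. In the 1145 regions of every list except the chimera, the median percentile was 46.3 in MyoD, 61.1 in NeuroD2, 56.6 in WC and 57.2 in WCS, lower in NeuroD2 and both mutants than in the 2599 regions without MyoD.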
